A study of Mus musculus with 6 samples.

Results

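The contractile apparatus, calcium handling and neuromuscular junction of skeletal muscle were followed as a set of 33 genes in cultured mouse muscle stem cells given either DMSO (Vehicle) or prostaglandin E2 (PGE2). The genes were taken by exact symbol, and all 33 had a row among the 43283 gene identifiers of the expression table. Each of the 2 groups had 3 RNA-seq libraries. Cells in both groups were C57BL/6, carried no stated genetic change, and came from hindlimb muscles of female mice aged 8 to 12 weeks by the sample labels and 2 to 4 months by the series text. They had been sorted for α7-integrin and CD34 and against CD45, Sca1, CD31 and CD11b, and were grown with fetal bovine serum. The Vehicle group received DMSO for 24 h and the PGE2 group received prostaglandin E2 for 24 h, at a dose that the labels do not give. RNA came from 5000 to 10000 cells per library and the cDNA was amplified. Whether the libraries came from separate mice or cultures is not said, so tests here measure only how far these libraries spread, and that spread may be technical.

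Muscle contracts when an action potential at the neuromuscular junction opens calcium release from the sarcoplasmic reticulum. Calcium binds troponin on the thin filament, tropomyosin moves, and myosin heads pull on actin, while titin and nebulin set the length and order of the filaments. Muscle stem cells and proliferating myoblasts build no sarcomeres: most of these genes turn on at terminal differentiation under MYOD1, MYOG and MEF2 factors. Desmin, acetylcholine receptor subunits and the receptor kinase MuSK can already be transcribed in myoblasts, and early or embryonic isoforms such as the cardiac-type troponin T precede the adult ones.

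The genes of the set ranged from 0 to 174 TPM in the cultured stem cells, and 9 of the 33 had a Vehicle mean of 10 TPM or more. TPM, the unit of the table, is a transcript's share of a library per unit of length, so levels can be set side by side between genes; it keeps no read depth, and the depth of each library is unknown. Of the 33 genes, 12 were above 0 in every library and 2, Mb and Tnnc2, were listed at 0 in every library. A gene was tested where at least 3 libraries reached 1 TPM, which held for 15 of the 33, and for 12781 genes in all; the other 6 of the 15 had a Vehicle mean under 10 TPM. The 18 untested genes never exceeded 4.66 TPM. Summed over the set, Vehicle libraries held 483, 515 and 441 TPM and PGE2 libraries 432, 316 and 395 TPM, so that every PGE2 library lay below every Vehicle library. Vehicle 3 and PGE2 1 lay close together. The genes with the highest levels, Chrna1, Des, Chrnb1 and Tnnt2, weigh most in these sums, and each of them overlapped between the groups.

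With limma and Benjamini-Hochberg adjustment over all genes at a threshold of 0.05, 0 of the 15 tested genes were called, beside 0 of all 12781 genes (0%). Of the 15, 13 had a lower and 2 a higher fitted value with PGE2, where 56.1% of all tested genes were lower. Their median log2 change was -0.54, beside -0.07 over all tested genes. An unadjusted p under 0.05 with a lower value was found for 3 of the 15, Tnnt1, Ttn and Acta1 (2.06% of all tested genes), and for 0 with a higher value (1.57%, and 3.63% in either direction). The same 3 were those with every PGE2 library below every Vehicle library (4.84% of all tested genes), and 0 had every PGE2 library above (3.18%). The genes had been chosen with these values known and Tnnt1 entered through its Vehicle libraries alone, so these counts describe the set and do not test it.

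**Figure D1:**
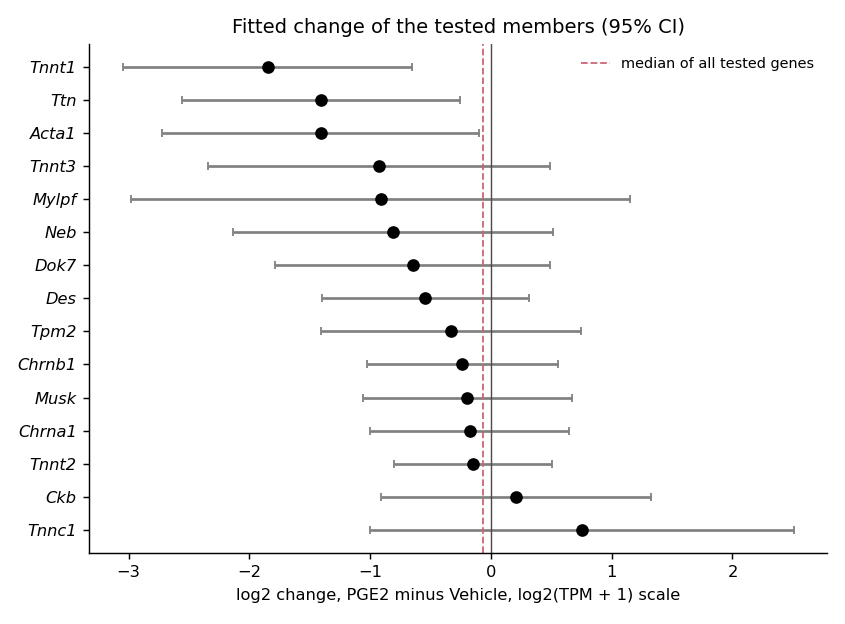
Fitted log2 change (PGE2 minus Vehicle, log2(TPM + 1) scale) of each of the 15 tested genes as a point, with its 95% confidence interval as a bar; the solid line marks 0 and the dashed line the median of all tested genes (-0.07). Intervals of Tnnt1, Ttn and Acta1 lie below 0 before adjustment, those of the other 12 genes include 0, and Ckb and Tnnc1 have points above 0.

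Genes that define muscle stem cells were present. Pax7, the transcription factor that marks muscle stem cells, ranged from 23.9 to 67.0 TPM over the 6 libraries, Myf5 from 119.8 to 303 TPM and Itga7, which encodes the sorted integrin, from 2.69 to 13.2 TPM. Cdh15, which encodes M-cadherin, ranged from 0 to 5.15 TPM. Myod1, which encodes the myogenic commitment factor MYOD1, was also present, at 89.5 to 146 TPM, and exceeded Pax7 in every library. Of 7 markers of mature myofibres, of which 6 belong to the set, the summed level was 4.55 to 7.25 TPM in Vehicle and 2.35 to 6.48 TPM in PGE2. In each library only 1 of the 7 reached 1 TPM. It was Acta1 in every Vehicle library and in PGE2 2, Pvalb in PGE2 1 and Myh2 in PGE2 3. Myoglobin (Mb) was at 0 throughout and Pvalb, the fast-fibre calcium buffer, reached 1.45 TPM in PGE2 1. The number of genes above 0 was 16446 to 19677 in Vehicle and 15400 to 17710 in PGE2.

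Among the filament genes, titin was transcribed in every library and was lower in each PGE2 library. Ttn, the giant spring protein that spans from Z-disc to M-line (mm10 chromosome 2, 76703980 to 76982547, minus strand), was found at 44.2 TPM in Vehicle 1, 19.6 in Vehicle 2 and 14.1 in Vehicle 3. In the treated cells it was found at 9.71 TPM in PGE2 1, 10.8 in PGE2 2 and 4.90 in PGE2 3. The groups did not overlap, and Vehicle 1 stood well above every other library. The log2 change was -1.41 (95% confidence interval -2.56 to -0.26, limma, Benjamini-Hochberg adjusted p = 1.00), a level 2.66-fold lower on the log2(TPM + 1) scale. The change was -0.96 without Vehicle 1 and -1.10 without PGE2 3, and in both cases its 95% confidence interval included 0.

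Nebulin, the ruler of the thin filament and the other giant of the set, was also transcribed but did not separate the groups. Neb (chromosome 2, 52136647 to 52378474, minus strand) was at 22.9, 16.4 and 10.7 TPM in Vehicle 1 to 3 and at 10.6, 3.12 and 17.8 TPM in PGE2 1 to 3. Its PGE2 values ran from the lowest of the 6 libraries to the second highest, and its log2 change was -0.81 (95% confidence interval -2.14 to 0.51). The longest annotated transcripts of Ttn and Neb measure 106824 and 22489 bases. Both genes also have short annotated isoforms, down to 271 bases for Ttn and 582 for Neb, and the table does not say which isoforms carried the reads. Each also shares exon sequence with an antisense gene (Gm13938 for Ttn, Gm13522 for Neb), whose reads cannot be told apart without strand information.

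Skeletal muscle α-actin, the thin filament actin of adult fibres, was low and lower still with PGE2. Acta1 (chromosome 8, 123891769 to 123894751, minus strand) was at 3.79 TPM in Vehicle 1, 6.71 in Vehicle 2 and 6.82 in Vehicle 3, and at 0.90 TPM in PGE2 1, 3.47 in PGE2 2 and 0.81 in PGE2 3. The groups did not overlap, though PGE2 2 came close to Vehicle 1. The log2 change was -1.41 (95% confidence interval -2.72 to -0.10, limma, Benjamini-Hochberg adjusted p = 1.00). The interval included 0 without Vehicle 2, Vehicle 3, PGE2 1 or PGE2 3, with changes of -1.18 to -1.30. Actc1, the cardiac α-actin that developing skeletal muscle also uses, was at 0.61, 2.10 and 0 TPM in Vehicle, and no PGE2 library listed it above 0; it was untested. The cytoplasmic actins that build the cell cortex dwarfed both. Actb ranged from 1207 to 2208 TPM and Actg1 from 392 to 955 TPM over the 6 libraries, with log2 changes of -0.09 (95% confidence interval -0.90 to 0.71) and -0.08 (-0.94 to 0.78).

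Troponin is the calcium switch of the thin filament, with a tropomyosin-binding subunit T, an inhibitory subunit I and a calcium-binding subunit C, each with slow, fast or cardiac isoforms. Tnnt2, the cardiac troponin T that embryonic skeletal muscle also makes, was the only 1 of the 7 troponin genes of the set above 10 TPM. Its values were 56.6, 64.1 and 56.5 TPM in Vehicle and, with PGE2, 63.9, 47.4 and 49.4 TPM. These overlapped and differed little, with a log2 change of -0.15 (95% confidence interval -0.80 to 0.51). Slow troponin T behaved otherwise. Tnnt1 (chromosome 7, 4504570 to 4516382, minus strand) was at 2.09, 4.37 and 1.82 TPM in Vehicle 1 to 3 and every PGE2 library listed it at 0. Its log2 change was -1.85 (95% confidence interval -3.05 to -0.65, limma, Benjamini-Hochberg adjusted p = 1.00). Because an exact 0 can be a failed estimate and the value rests on the pseudocount, no fold is given.

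Slow troponin I followed the same pattern at a lower level. Tnni1 was at 0.99, 2.32 and 0.50 TPM in Vehicle, again with 0 in every PGE2 library, and was untested. The fast isoforms were scattered over both groups. Tnnt3, fast troponin T, was at 3.78, 2.20 and 3.19 TPM in Vehicle and at 2.90, 0 and 1.38 TPM in PGE2 (log2 change -0.93, 95% confidence interval -2.34 to 0.49). Tnni2, fast troponin I, was at 4.33, 0.41 and 0.87 TPM in Vehicle and at 0, 0 and 2.50 TPM in PGE2. Of the tested troponin genes, only that of the slow and cardiac calcium-binding subunit had a higher fitted value with PGE2. Tnnc1 was at 0.84, 0.50 and 2.02 TPM in Vehicle and at 6.91, 4.03 and 0 TPM in PGE2, so that PGE2 held the highest values and the lowest. Its log2 change of 0.75 (95% confidence interval -1.01 to 2.51) became 1.64 without PGE2 3 and 0.15 without PGE2 1.

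Troponin I and T genes lie in neighbouring pairs in the mouse genome, and the levels were far apart within 1 of these pairs. On chromosome 1, Tnni1 and Tnnt2 are separated by 25364 bases in the GENCODE M21 annotation, and Tnnt2 exceeded Tnni1 in every library, by 47.4 TPM against 0 in PGE2 2, for example. On chromosome 7, Tnni2 and Tnnt3, separated by 54425 bases, were both under 5 TPM in all libraries. Tnnt1 lies 1922 bases from Tnni3, cardiac troponin I, also on chromosome 7. Tnni3 was at 1.37 TPM in Vehicle 3, at 5.14 TPM in PGE2 2 and at 0 in the other libraries, and thus not in the libraries that held most Tnnt1.

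**Figure D2:**
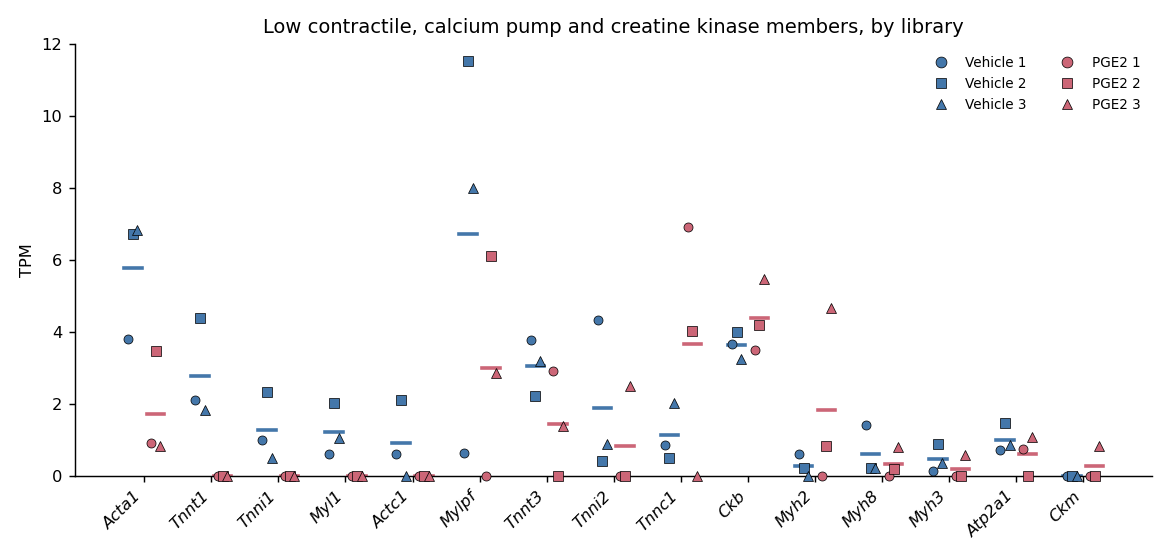
TPM (linear axis) of 15 low genes of the set in each library; each point is a library (circle, square and triangle for replicates 1, 2 and 3), and each horizontal bar is the mean of 3 libraries. Tnnt1, Tnni1, Myl1 and Actc1 are at 0 in every PGE2 library, while Tnnc1, Tnni2, Myh2 and Ckb overlap between the groups.

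Genes of the set above 0 in every Vehicle library and at 0 in every PGE2 library were Tnnt1, Tnni1 and Myl1, the essential light chain of fast myosin. These are 3 of the 31 genes of the set above 0 anywhere, and the share over all 26770 genes above 0 anywhere was 0.844%. The opposite pattern occurred for 0 genes of the set and for 0.202% of all genes. Myl1 was at 0.59, 2.02 and 1.05 TPM in Vehicle, so all 3 genes were within a few TPM of 0 to begin with. Myog, the transcription factor that drives terminal differentiation, had the same pattern, at 3.52 TPM or less in Vehicle. The PGE2 libraries had 15, 18 and 25 genes of the set above 0 and the Vehicle libraries 27, 26 and 25; PGE2 1, the lowest, also had the fewest genes above 0 of any kind, and the part of such differences in detection was not tested.

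The motor itself was scarcely transcribed. Of the 6 myosin heavy chain genes, 5 lie in a cluster on chromosome 11 (67078300 to 67308634) and Myh7, the slow and cardiac isoform, on chromosome 14. Myh7 was at 0.12, 0 and 0 TPM in Vehicle and at 0, 0.83 and 0.15 TPM in PGE2. Embryonic Myh3 was at 0.14, 0.89 and 0.35 TPM in Vehicle and at 0, 0 and 0.56 TPM in PGE2. Perinatal Myh8 was at 1.41, 0.21 and 0.21 TPM in Vehicle and at 0, 0.19 and 0.80 TPM in PGE2. Of the adult fast isoforms, Myh2 (type IIa) was at 0.61, 0.21 and 0 TPM in Vehicle and at 0, 0.83 and 4.66 TPM in PGE2. That value in PGE2 3 was the highest of any heavy chain in any library, and the 5 others stayed at or below 1.41 TPM. Myh1 (type IIx) and Myh4 (type IIb) reached 0.40 and 0.19 TPM. Sequence identity limits how well these isoforms are told apart. Of the 50-base stretches of Myh1 and Myh2 transcripts, 25.4% and 22.9% also occur in transcripts of other genes.

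PGE2 3 had the highest level of any library for the adult fibre transcripts Myh2, Ckm and Casq2, but not for all such transcripts. The same library had the lowest Acta1 (0.81 TPM) and Ttn (4.90 TPM) and listed Myh1, Mb and Pvalb at 0. It was the only library with Ckm above 0 (0.82 TPM), the muscle creatine kinase that buffers ATP. Casq2, a calsequestrin that stores calcium in the sarcoplasmic reticulum, was at 1.98 TPM there, at 0.73, 0 and 0.65 TPM in Vehicle 1 to 3 and at 0 in PGE2 1 and PGE2 2. The 18 untested genes summed to 14.6 TPM in PGE2 3, against 1.27 and 2.48 TPM in PGE2 1 and PGE2 2 and 10.6, 12.1 and 4.78 TPM in Vehicle 1 to 3. Over these low genes, PGE2 3 thus lay above the Vehicle libraries and the other two PGE2 libraries below them. The brain-type creatine kinase Ckb, which undifferentiated cells use, was steady at 3.66, 3.98 and 3.25 TPM in Vehicle and at 3.50, 4.20 and 5.47 TPM in PGE2 (log2 change 0.21, 95% confidence interval -0.91 to 1.33).

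Of the myosin light chains, Mylpf, the regulatory light chain of fast fibres, varied most within groups. It was at 0.62, 11.5 and 8.00 TPM in Vehicle and at 0, 6.11 and 2.84 TPM in PGE2. Vehicle 1 and PGE2 1 were near 0 and the other libraries above 2 TPM, and the log2 change of -0.91 had an interval of -2.98 to 1.15. Myl4, the embryonic and atrial essential light chain, was above 0 in Vehicle 2 (1.88 TPM) and PGE2 3 (1.33 TPM) only. Mybph, a myosin-binding protein, stayed at or below 0.50 TPM.

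Tropomyosin and desmin, which non-sarcomeric structures of myoblasts also use, were well expressed. Tpm2, β-tropomyosin, was at 15.5, 16.8 and 20.5 TPM in Vehicle and at 23.3, 6.66 and 16.1 TPM in PGE2 (log2 change -0.33, 95% confidence interval -1.40 to 0.75). It was the least abundant of the tropomyosin genes. Tpm1 ranged from 287 to 490.2 TPM, Tpm3 from 88.5 to 165.9 TPM and Tpm4 from 422 to 558 TPM. Des, the intermediate filament of muscle, was at 72.0, 107 and 86.6 TPM in Vehicle and at 35.0, 66.7 and 90.8 TPM in PGE2 (log2 change -0.54, 95% confidence interval -1.40 to 0.31). PGE2 1 had the lowest Des of all libraries, and PGE2 3 lay inside the Vehicle range.

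**Figure D3:**
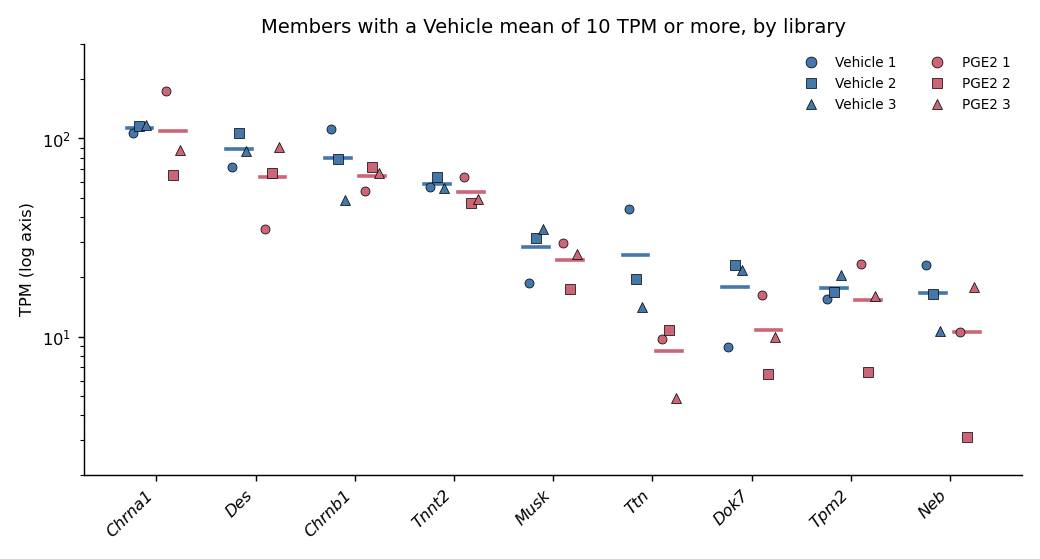
TPM on a log axis of the 9 genes of the set with a Vehicle mean of 10 TPM or more, ordered by that mean; each point is a library (circle, square and triangle for replicates 1, 2 and 3) and each horizontal bar the mean of 3 libraries. Only Ttn separates the groups, with PGE2 libraries at 4.90 to 10.8 TPM and Vehicle libraries at 14.1 to 44.2 TPM.

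None of the 3 calcium handling genes of the set, Ryr1, Atp2a1 and Casq2, exceeded 1.98 TPM in any library. Ryr1, the calcium release channel of skeletal muscle, was at 0.20, 0.15 and 0.03 TPM in Vehicle and at 0.53, 0.23 and 0.18 TPM in PGE2. Atp2a1, the fast-fibre calcium pump SERCA1, was at 0.71, 1.45 and 0.85 TPM in Vehicle and at 0.74, 0 and 1.07 TPM in PGE2. Its paralog Atp2a2 (SERCA2), which most cells use, ranged from 150.2 to 234 TPM, and the inositol trisphosphate receptors Itpr1 and Itpr2 from 3.50 to 10.6 and from 3.09 to 7.75 TPM. Cacna1s, the voltage sensor that opens RYR1 in muscle, was listed at 0 in every library. Other muscle genes of calcium handling were uneven. Sln was listed at 0 in every library. Trdn and Hrc stayed at or below 0.23 and 0.13 TPM, and Casq1 ranged from 0 to 3.69 TPM. Some were present throughout. Jph1, a junctophilin that holds the sarcoplasmic reticulum against the surface membrane, ranged from 6.60 to 11.1 TPM, and Srl, which encodes the calcium-binding sarcalumenin, from 3.58 to 7.61 TPM. Among 30 further calcium handling genes, 17 entered the test, with lower values for 9 and higher for 8, and 0 passed limma's test (median log2 change -0.05). Orai1, the store-operated calcium channel, was named after its values were seen, as the only 1 of the 17 whose groups did not overlap. Over all tested genes, 4.84% had every PGE2 library below every Vehicle library, so 1 of 17 does not set this list apart. Orai1 had the values that follow. It was at 4.28, 4.18 and 4.29 TPM in Vehicle and at 1.34, 0.65 and 3.51 TPM in PGE2 (log2 change -1.02, 95% confidence interval -2.30 to 0.26).

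The 4 neuromuscular junction genes of the set each had a mean above 10 TPM in both groups, and each overlapped between the groups. Chrna1, the acetylcholine-binding subunit of the receptor, was at 107, 116.2 and 117 TPM in Vehicle and at 174, 65.6 and 87.6 TPM in PGE2. The Vehicle libraries were close together (113 ± 5.61 TPM, mean ± SD, n = 3) and the PGE2 libraries lay on both sides of them (109 ± 57.4 TPM, mean ± SD, n = 3). The log2 change was -0.18 (95% confidence interval -1.0 to 0.65), and it was 0.12 without PGE2 2. Chrnb1, the β subunit, spread in the opposite way, at 111.8, 78.7 and 48.8 TPM in Vehicle and at 54.5, 71.7 and 66.9 TPM in PGE2. Its log2 change of -0.24 (95% confidence interval -1.03 to 0.55) was 0.044 without Vehicle 1.

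Of the subunits that set fetal and adult receptors apart, the fetal one was detected. Chrnd, the δ subunit, ranged from 7.06 to 17.5 TPM and Chrng, the fetal γ subunit, from 0.61 to 6.10 TPM over the 6 libraries. Chrne, the ε subunit that replaces γ in adult junctions, was listed at 0 in every library. The log2 changes were 0.03 for Chrnd (95% confidence interval -1.02 to 1.08) and 0.00 for Chrng (-1.62 to 1.62). Chrng was under 1 TPM in replicate 3 of both groups.

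MuSK is the receptor kinase that gathers acetylcholine receptors under the nerve ending, and DOK7 is the cytoplasmic adaptor that activates it. Musk was at 18.7, 31.5 and 34.8 TPM in Vehicle and at 29.7, 17.4 and 26.0 TPM in PGE2 (log2 change -0.20, 95% confidence interval -1.06 to 0.67, and 0.020 without PGE2 2). Dok7 was at 8.85, 23.1 and 21.7 TPM in Vehicle and at 16.2, 6.47 and 9.95 TPM in PGE2 (log2 change -0.65, 95% confidence interval -1.79 to 0.49). Both were lowest in PGE2 2 and highest in Vehicle 2 and Vehicle 3. Over the 6 libraries their log2(TPM + 1) values had a Pearson's r of 0.94 (exact permutation p = 0.00556, Benjamini-Hochberg adjusted p = 0.0333 over the 6 pairs of junction genes). Spearman's rho was 0.94 (exact permutation p = 0.0167, adjusted p = 0.10). Leaving out Vehicle 1 and PGE2 2, the libraries farthest from the median of Musk, gave r = 0.92. The adjusted exact permutation p of r was 0.217 after median-ratio scaling and 0.117 after quantile normalization, and with 3 libraries per group the relation could not be tested within a group. The other 5 pairs had r between -0.67 and 0.70 and adjusted exact permutation p of 0.263 or more.

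**Figure D4:**
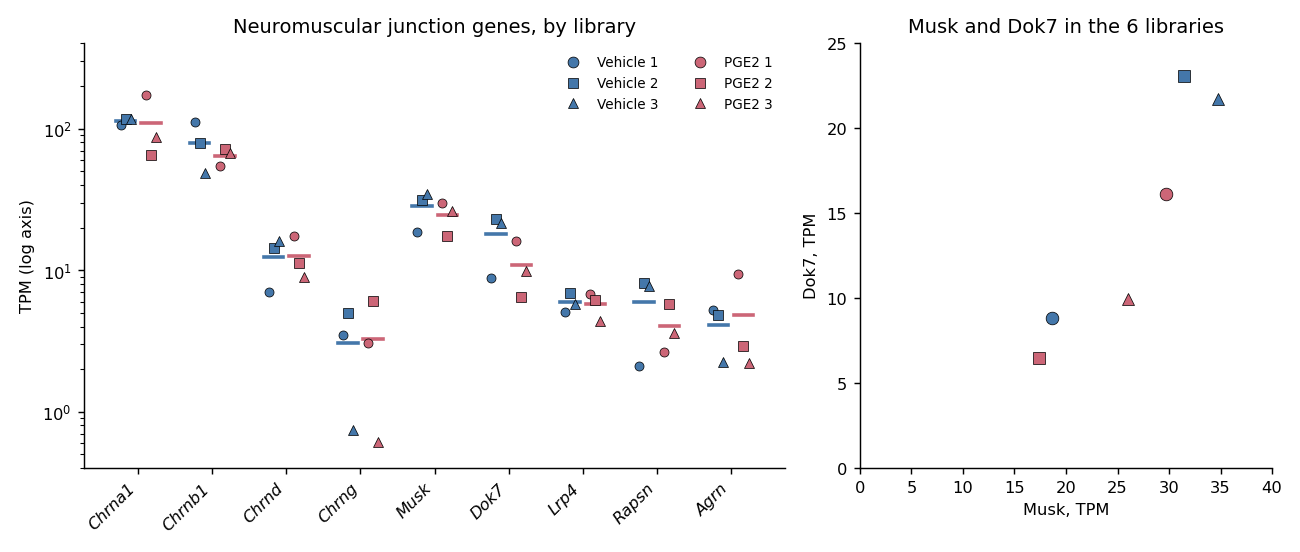
Left, TPM on a log axis of 9 neuromuscular junction genes in each library, with each point a library (circle, square and triangle for replicates 1, 2 and 3) and each horizontal bar the mean of 3 libraries; every gene overlaps between the groups. Right, Dok7 against Musk in TPM, each point a library; both are lowest in PGE2 2 and highest in Vehicle 2 and Vehicle 3.

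The other junction genes ran from 0 to 316 TPM, and none of those tested separated the groups. Ache, which encodes acetylcholinesterase, and Cav3, the muscle caveolin, were listed at 0 in every library. Prkar1a, a regulatory subunit of protein kinase A, ranged from 236 to 316 TPM, and Gabpa, which encodes the DNA-binding subunit of GABP, from 49.4 to 129 TPM. Lrp4, the agrin receptor that works with MuSK, was at 5.05, 6.95 and 5.79 TPM in Vehicle and at 6.79, 6.20 and 4.37 TPM in PGE2. Rapsn, the scaffold that clusters the receptor, was at 2.10, 8.07 and 7.73 TPM in Vehicle and at 2.66, 5.79 and 3.59 TPM in PGE2. Agrn, which encodes agrin, ranged from 2.20 to 9.37 TPM. Of 23 further junction genes, 16 entered the test, with lower values for 10 and higher for 6, and 0 passed limma's test (median log2 change -0.04).

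Of 48 further sarcomere and Z-disc genes, 14 entered the test, with lower values for 10 and higher for 4, and 0 passed limma's test (median log2 change -0.30). Xirp1, an actin-binding repeat protein of developing and damaged muscle, was at 3.20, 6.32 and 6.87 TPM in Vehicle and at 1.01, 1.43 and 0.76 TPM in PGE2. Its groups did not overlap and its log2 change was -1.60 (95% confidence interval -2.82 to -0.39, limma, Benjamini-Hochberg adjusted p = 1.00). Without Vehicle 2 it was -1.49 and without Vehicle 3 -1.44, with intervals that included 0. Synpo2l, a Z-disc protein named after its values were seen, was the other of the 14 without overlap, at 2.25, 1.95 and 2.98 TPM in Vehicle and at 1.30, 0.65 and 1.06 TPM in PGE2 (log2 change -0.76, 95% confidence interval -1.93 to 0.41). These 2 of 14 stand beside 4.84% of all tested genes with every PGE2 library below every Vehicle library. Of 14 nonmuscle actin, myosin and tropomyosin genes, 13 entered the test, with lower values for 5 and higher for 8 (median log2 change 0.01). Of 17 genes of myogenic commitment and fusion, 10 entered the test, with lower values for 4 and higher for 6 (median log2 change 0.06). None of these 23 passed, and differences between the lists were not tested.

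Spread within groups limits which changes a test can call, and how far it did so here is not given. On the log2(TPM + 1) scale the median SD of the 15 tested genes was 0.46 between Vehicle libraries and 0.69 between PGE2 libraries. It was 0.37 and 0.59 over the 8370 tested genes that averaged 5 TPM or more. In bulk RNA, fewer differentiating cells and less of these transcripts per cell cannot be told apart. Markers of other cell types were measured in the same libraries. Of 8 fibro-adipogenic markers 4 were tested, and the list summed to 28.8 to 39.8 TPM in Vehicle and 41.6 to 55.8 TPM in PGE2, so that every PGE2 sum lay above every Vehicle sum. The tested 4 were split, with higher values in PGE2 for Col3a1 (log2 change 0.53) and Pdgfrl (0.38) and lower for Ly6a (-1.04) and Cd55 (-0.47). None passed limma's test. Values of single libraries weighed in the sums, with Ly6a at 13.55 TPM in PGE2 2 and Col1a1 at 14.4 TPM in PGE2 3. Col3a1 alone, a fibrillar collagen, ranged from 15.3 to 36.5 TPM, while Pdgfra, the receptor that defines fibro-adipogenic cells, stayed at or below 1.45 TPM. Of 10 smooth muscle and pericyte markers 3 were tested, with sums of 14.6 to 31.8 TPM in Vehicle and 12.6 to 36.5 TPM in PGE2. Over the 6 libraries, Acta2 ranged from 4.77 to 13.4 TPM (log2 change 0.27). Tagln ranged from 0 to 20.3 TPM (0.11) and Smtn from 0.73 to 7.67 TPM (-0.86). None of these 3 passed limma's test. Pdgfrb was at 0 throughout and Myh11 stayed at or below 0.90 TPM. Of 8 endothelial markers 3 were tested, with sums of 4.16 to 7.42 and 7.18 to 19.9 TPM, and the highest sum came mostly from Emcn, at 15.3 TPM in PGE2 3 and at 0.87 TPM or less elsewhere. Of these 3, Pecam1 (log2 change -0.29) and Tek (-0.75) had lower and Eng (1.05, without overlap of the groups) higher values with PGE2, and 0 passed limma's test. Over all tested genes, 3.18% had every PGE2 library above every Vehicle library. Of 8 leukocyte markers 3 were tested, with sums of 2.93 to 11.9 and 8.25 to 13.9 TPM. Of 6 glial markers 2 were tested, with sums of 4.64 to 6.69 and 3.44 to 9.62 TPM, and of 5 red cell markers 0 were, with sums of 4.88 TPM or less. Their part in the values of the set was not tested.

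The DNA before the start sites shows which known muscle motifs these genes share. Promoters of 30 of the 33 genes were found in the RefSeq table (build GRCm38.p6), and the 250 bases before each start were searched on both strands. Tnni1, Tnnt2, Dok7, Myh7 and Mb have more than 1 start in the table, and a gene was counted where any of its windows held the motif. The E-box CANNTG, the site of MYOD1 and other basic helix-loop-helix factors, was found for 24 of the 30 and for 69.3% of all 27025 genes with a promoter. Its form CAGCTG, which MYOD1 and MYOG favour and which CANNTG also counts, was found for 14 of the 30 (46.7%), beside 14.7% of all genes. The CArG box, the site of serum response factor, was found for Acta1, Actc1 and Myh4 (10%, beside 1.62%). The MEF2 site was found for Ttn and Ckb (6.67%, beside 0.592%), and the N-box CCGGAA, bound by GABP in junction genes, for Myl1 and Myl4 (6.67%, beside 13.6%). The full cAMP response element TGACGTCA was found for 0 of the 30 genes and for 1.77% of all genes. These are matches of letters, not shown sites.

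The windows printed are those of the 3 tested genes whose groups did not overlap, Tnnt1 (chr7:4516005-4516225), Acta1 (chr8:123894776-123895025) and Ttn (chr2:76982548-76982797), and of Chrna1 (chr2:73580339-73580588), the gene of the set with the highest mean. All are on the minus strand and read 5′ to 3′ up to the base before the RefSeq start, with each CANNTG in capitals. The print of Tnnt1 stops 29 bases short of it, where GENCODE M21 has an exon of another transcript. In that annotation the 5′ end of Tnnt1 is at 4516382, so the printed bases of Tnnt1 also lie inside the annotated gene.
Tnnt1: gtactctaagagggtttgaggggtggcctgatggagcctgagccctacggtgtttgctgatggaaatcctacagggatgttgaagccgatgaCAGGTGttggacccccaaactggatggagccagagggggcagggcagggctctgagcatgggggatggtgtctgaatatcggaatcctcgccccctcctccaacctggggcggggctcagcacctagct
Acta1: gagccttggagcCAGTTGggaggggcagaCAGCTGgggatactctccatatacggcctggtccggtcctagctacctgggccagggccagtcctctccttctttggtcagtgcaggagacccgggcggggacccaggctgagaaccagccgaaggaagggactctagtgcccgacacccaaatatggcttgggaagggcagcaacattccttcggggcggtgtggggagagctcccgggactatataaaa
Ttn: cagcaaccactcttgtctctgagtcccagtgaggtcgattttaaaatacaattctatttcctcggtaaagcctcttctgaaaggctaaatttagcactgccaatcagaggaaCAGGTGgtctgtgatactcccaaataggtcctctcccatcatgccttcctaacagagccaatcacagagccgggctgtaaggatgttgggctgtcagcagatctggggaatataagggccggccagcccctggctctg
Chrna1: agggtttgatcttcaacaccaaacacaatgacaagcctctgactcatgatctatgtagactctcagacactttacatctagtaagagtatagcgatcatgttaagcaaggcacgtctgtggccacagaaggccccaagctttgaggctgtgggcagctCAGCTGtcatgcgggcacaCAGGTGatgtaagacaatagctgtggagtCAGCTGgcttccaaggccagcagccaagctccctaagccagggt
Tnnt1 and Ttn held 1 E-box each, in neither case CAGCTG, and Acta1 held 2, of which 1 was CAGCTG. Chrna1 held 3, of which 2 were CAGCTG, all in the part of the window nearest the start.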

How the data were processed

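RNA-seq was analysed from 6 libraries, 3 Vehicle and 3 PGE2. The authors deposited 1 table of TPM values per gene; the unit is inferred from the values, which sum to between 992357 and 995645 per library. STAR, RSEM and mm10 are named per the submitters' processing notes, with versions and annotation not given in the sources used here. Depth is unknown, so no counting interval is given.

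The design named a count test for counts and limma for TPM, so limma was used. Genes that reached 1 TPM in 3 or more libraries were compared on log2(TPM + 1) in R 4.3.3 by limma 3.58.1, two-sided, with a trended variance prior and Benjamini-Hochberg adjustment over all tested genes at a threshold of 0.05. Changes are PGE2 minus Vehicle and understate low genes. The fit was tested on simulated data. Correlations used exact permutation tests (scipy 1.17.1, Python 3.11.15).

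The set and the other lists were chosen with earlier results of these data known. Named genes are the 33 of the set, up to 4 per other list with an unadjusted p under 0.1, and Pax7, Myod1 and Myog; other genes of the lists given as reference levels were chosen after their values were seen. Lists were matched by symbol, and 2 genes, Mymk and Mymx, by gene ID. Positions, transcript lengths and shared 50-base stretches come from GENCODE M21 (mm10), promoters from RefSeq. Alternatives covered the pseudocount, filter, scaling, variance prior, weights per library, a block for the replicate number, and leaving out each library.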

Additional observations from a re-analysis of the deposited data

How the results depend on the processing

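None of the genes of the set passed limma's test under any of the 18 alternatives (0 in each). Over all genes, where 0 passed and 464 had an unadjusted p under 0.05, 1 passed with a robust variance prior, 4 with a variance prior without a mean trend, and 0 to 2 with a library left out. The median log2 change of the tested genes of the set was -0.54. It was -0.24 without a filter, where 31 genes of the set entered, and -0.63 to -0.32 with a library left out. A filter on the mean of all libraries at 1 TPM, chosen after seeing the data, kept 17 genes of the set and left it at -0.54. Of the 15 log2 changes, 11 kept their sign in each alternative that gave them a value; Ckb, Acta1, Tnnt1, Tnnt3, Tnnc1 and Mylpf had none under a filter on a mean of 5 TPM, and Tnnt1, Ttn and Acta1 could not turn with a library left out, since their groups do not overlap. The other 4 turned only with a library left out: Chrna1 (-0.57 to 0.12), Musk (-0.46 to 0.020) and Tpm2 (-0.69 to 0.14) without PGE2 2, and Chrnb1 (-0.55 to 0.044) without Vehicle 1. The log2 change of Tnnt1 ran from -4.73 at a pseudocount of 0.1 TPM to -0.62 at 5 TPM. The unadjusted p of Acta1 was 0.0656 without a filter and 0.0510 with the replicate block. The median over all genes, -0.07, ran from -0.17 without PGE2 1 to 0.00686 without PGE2 3, where 49.5% of genes were lower; it was -0.12 with library weights and -0.02 without PGE2 2 or with median-ratio scaling. The cause of these shifts was not tested.

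Replicate numbers are shared by the groups. Same-numbered libraries did not deviate together (Pearson's r across 12781 genes of -0.06, -0.04 and 0.07 for numbers 1 to 3). The mitochondrial share nevertheless rose with the number in both groups. It was 20.9% for Vehicle 1, 28.3% for Vehicle 2 and 33.6% for Vehicle 3. Among treated libraries, PGE2 1 held 23.0%, PGE2 2 held 25.5% and PGE2 3 held 30.4%. Whether libraries with the same number have a common origin was not tested. With the replicate block, 0 genes passed, of all genes and of the set, 482 of all genes and 2 of the set had an unadjusted p under 0.05, and the median stayed at -0.54. Only Vehicle 3 and PGE2 3 correlated best with their own number. The count tests were not run, since the table keeps no counts.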
